A study of Mus musculus with 6 samples.

Results

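Tcf7, Lef1 and Axin2 are 3 of the 235 promoters in a deposited table of ATAC-seq signal from mouse limb explants, and they were taken by gene symbol as the genes that act inside the cell in canonical Wnt signalling. ATAC-seq marks open chromatin through the Tn5 transposase, which inserts sequencing adapters into accessible DNA. All explants were limbs from outbred CD-1 mice with a wild-type genotype, and all were taken 1 day after amputation. The compared groups were culture at an air-liquid interface (ALI, 3 libraries) and culture in 96-well plates (96-well, 3 libraries). For each culture, 4 limbs were collected and dissociated with trypsin, per the protocols of the labels. The age of the animals was not given in the sources used here. Nothing in the labels ties the 3 replicates to different animals. The p-values therefore set group differences only against variation between these libraries, and that variation may be technical.

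In canonical Wnt signalling, a secreted Wnt ligand stops the destruction of β-catenin, which then enters the nucleus and binds transcription factors of the TCF/LEF family. Tcf7 (also called TCF-1) and Lef1 encode members of that family, and both act in the limb bud, where β-catenin signalling is needed to form the apical ectodermal ridge. Axin2 encodes a scaffold of the complex that destroys β-catenin, and as a direct target of the pathway it acts as its negative feedback and is widely used as a readout of it.

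Each promoter window covered 1000 bp on either side of the annotated transcription start (TSS), read in the direction of transcription, in 100 bins of 20 bp. Signal is coverage normalized by the authors to sequencing depth. On GRCm39, the TSS of Tcf7 lies at position 52174159 of chromosome 11 on the minus strand, that of Lef1 at 130904121 of chromosome 3 on the plus strand, and that of Axin2 at 108811176 of chromosome 11 on the plus strand. No other TSS of the table lies within 1957658 bp of any of them. Exons and untranslated regions inside the windows are not described, because no GRCm39 annotation was used here.

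Sequences at RefSeq starts are shown because signal per base was highest close to the start used in the table for each gene. They are the 250 bases listed before a RefSeq start of GRCm38.p6, 5′ to 3′ in the direction of transcription, with CG pairs in capitals. For Tcf7 only the last 165 of those bases are shown, from an ATG onward. From that ATG to their end, the Tcf7 bases hold no stop codon in frame. They may therefore be coding sequence and not promoter sequence. The positions belong to GRCm38.p6 and were not placed on the GRCm39 windows, so the RefSeq start and the start used in the table may differ. RefSeq lists 2 starts for Tcf7, 419 bp apart, and 4 for Lef1, and the outermost start of each gene was used, so the counts below hold for that start alone.
Tcf7, GRCm38.p6, minus strand, chr11:52283015-52283179: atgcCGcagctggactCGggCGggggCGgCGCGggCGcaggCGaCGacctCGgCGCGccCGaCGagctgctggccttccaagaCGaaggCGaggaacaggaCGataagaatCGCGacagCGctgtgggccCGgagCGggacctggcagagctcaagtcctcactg
Lef1, GRCm38.p6, plus strand, chr3:131110047-131110296: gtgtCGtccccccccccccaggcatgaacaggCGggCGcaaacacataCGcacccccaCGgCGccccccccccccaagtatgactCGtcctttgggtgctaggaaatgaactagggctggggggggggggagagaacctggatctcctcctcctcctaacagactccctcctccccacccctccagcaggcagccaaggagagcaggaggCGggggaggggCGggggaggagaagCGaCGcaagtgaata
Axin2, GRCm38.p6, plus strand, chr11:108920099-108920348: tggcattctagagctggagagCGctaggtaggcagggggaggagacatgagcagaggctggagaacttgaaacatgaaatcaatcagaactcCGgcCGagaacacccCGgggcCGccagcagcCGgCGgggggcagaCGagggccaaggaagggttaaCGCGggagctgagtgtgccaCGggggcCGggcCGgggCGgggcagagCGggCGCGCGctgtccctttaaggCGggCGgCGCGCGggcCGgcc

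The full 250 bases held 37 CG pairs at Tcf7, 24 at Axin2 and 11 at Lef1. The median was 6 over 27025 RefSeq promoters and 13.5 over the 164 genes of the table that matched a RefSeq symbol, so Tcf7 and Axin2 lay above both medians and Lef1 between them. The TCF/LEF core CTTTGA was searched on both strands, as were ACGTG, the core of the hypoxia response element, and its variant GCGTG. None of the 3 motifs occurred in the 250 bases of Tcf7, Lef1 or Axin2. Because the Tcf7 bases may be coding, its CG count and motif search may not describe a promoter. CTTTGA occurs in 14.1% of all RefSeq promoters of that length, ACGTG in 16.5% and GCGTG in 28.3%. ACGTG and GCGTG differ at their first letter and share the rest.

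The 6 libraries differed in level over the whole table. Mean signal was 11.8, 18.6 and 12.4 in ALI replicates 1 to 3 and 10.1, 10.3 and 14.7 in the 96-well replicates, so ALI replicate 2 and 96-well replicate 3 stood above the other libraries. Signal in the central 400 bp was 5.17 to 6.27 times that in the outermost 200 bp of each side in ALI and 4.57 to 5.09 times in 96-well libraries, and these ranges did not overlap. Relative depth, estimated from the smallest steps of the values, ranged from 0.767 to 1.29. Values are therefore given on both of 2 scales: signal as deposited, which is the main result, and median centring. For centring, the log2 deviation of each library from each promoter's own mean was taken over whole windows. Its median over the 235 promoters was subtracted from the library. The same shift was applied to regions and blocks, which were not centred themselves. Of the marker genes listed for limb mesenchyme, 2 of 12 were in the table (Msx1 and Msx2, summed signal 17.2 to 25.9 in ALI and 16.8 to 28.1 in 96-well), and of those for limb ectoderm 6 of 12 were (27.2 to 37.1 and 27.9 to 39.7). No marker in the table was at 0, the defining Prrx1, Krt5 and Krt14 were not among its promoters, and it held none of the 19 markers listed for muscle, endothelium, blood, cartilage and nerve, so the labelled tissue could not be checked against them. The part of these markers and of the centre-to-edge ratio in the results was not tested. In bulk tissue, fewer cells with an open promoter and a less open promoter in each cell cannot be told apart.

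Over the whole window the 3 promoters kept 1 order of openness in all 6 libraries: Axin2 above Lef1 above Tcf7. By mean signal over the window they ranked 14, 92 and 128 of the 235 promoters. Axin2 was thus among the most open promoters of the table, and Tcf7 was just below the median of 10.6. The order did not hold in every region. From 1000 to 200 bp upstream, Lef1 was above Axin2 in every library, with means of 10.5 against 8.26 in ALI and 11.8 against 8.20 in 96-well. Downstream, Tcf7 was above Lef1 in 96-well replicate 3 (15.0 against 13.2). The shapes of the 3 promoters differed as well. Axin2 had a broad block of open chromatin from about the TSS to beyond 400 bp downstream, with 47.6% ± 0.85 (SD, n = 3) of the window's signal between 200 and 1000 bp downstream in ALI and 48.0% ± 1.06 in 96-well libraries. Lef1 had its highest bin 180 bp upstream of the TSS in 5 of 6 libraries, and Tcf7 had its highest bin between 140 and 20 bp upstream.

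**Figure D1:**
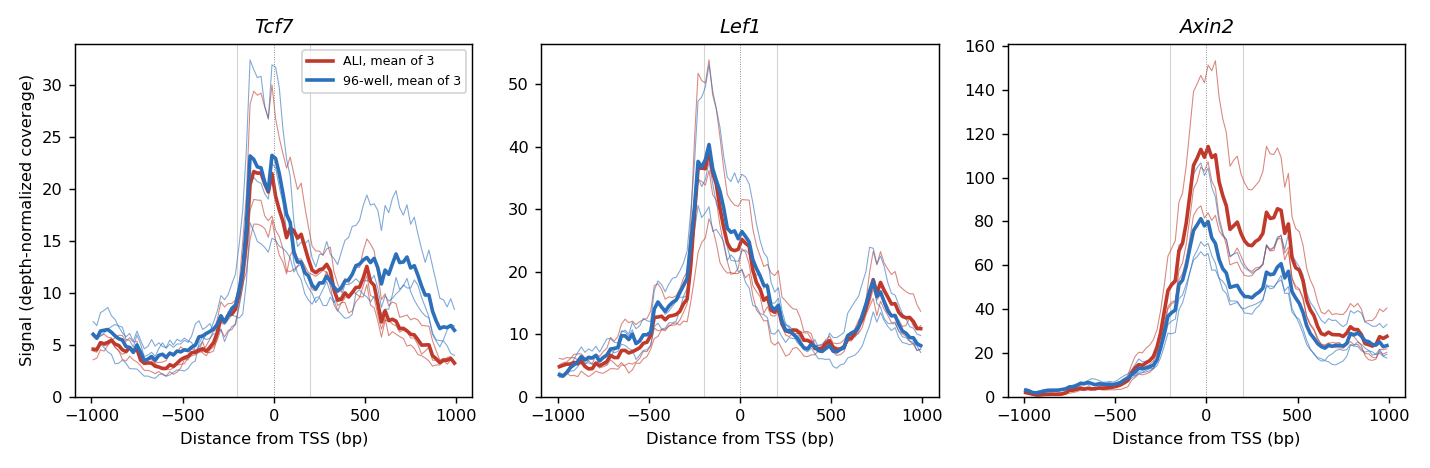
Signal in 20 bp bins (vertical axis, depth-normalized coverage) by distance from the TSS in bp (horizontal axis), upstream to the left, for each of the 3 promoters, with thin lines for the libraries, thick lines for the means of 3 libraries, and grey lines at 200 bp on each side of the TSS. The groups part at the far downstream end of Tcf7 and at the far upstream end of Axin2, where signal is low, with 96-well higher at both. Over the centre and downstream block of Axin2 the ALI mean is higher but the libraries overlap. The Lef1 means run close together.

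Tcf7, a nuclear effector, had lower signal in every ALI library than in any 96-well library at the downstream end of its window. On deposited values no region of Tcf7 passed the test. After median centring the whole window and the downstream region did, and the centre did not. Whole-window signal was 7.62, 10.5 and 7.46 in ALI and 8.71, 8.19 and 13.4 in 96-well libraries. These groups overlapped, since ALI replicate 2 lay above both lower 96-well libraries. The change, ALI minus 96-well on the log2(signal + 1.04) scale, was −0.21 ± 0.26 (SE; limma, Benjamini-Hochberg adjusted p = 0.87), and on deposited values 0 of 235 promoters (0%) passed the threshold of 0.05, with 7 at an unadjusted p under 0.05. After median centring the window of Tcf7 was lower in ALI, by −0.37 ± 0.10 (limma, adjusted p = 0.0021), with no overlap between groups. The background on that scale was 21.7% of promoters called, 10.2% of all promoters called lower, and 39.1% without overlap.

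The downstream region carried most of the Tcf7 difference. From 200 to 1000 bp downstream, signal was 7.16, 9.65 and 7.35 in ALI and 9.33, 8.53 and 15.0 in 96-well libraries, a deposited change of −0.37 ± 0.27 (limma, adjusted p = 0.75) with overlapping groups. After centring the change there was −0.54 ± 0.11 (limma, adjusted p = 0.00027) with no overlap, against a background of 14% of promoters called lower downstream and 31.1% without overlap. In the central 400 bp, signal was 13.9, 23.1 and 14.5 against 13.1, 16.3 and 23.8, and the centred change of −0.20 ± 0.14 did not pass the test (limma, adjusted p = 0.36, 95% interval −0.48 to 0.07). Upstream, the centred change was −0.34 ± 0.14 (limma, adjusted p = 0.088), and it passed the test without ALI replicate 1 (−0.47, adjusted p = 0.022) or 96-well replicate 2 (−0.48, adjusted p = 0.040). Of the difference in mean window signal of −1.58 between the groups, 73.1% came from the downstream region, 20.1% from the upstream region and 6.72% from the centre.

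Shares of the window's signal do not depend on a library's level. The downstream region held 37.6%, 36.9% and 39.5% of the Tcf7 signal in ALI and 42.8%, 41.7% and 44.8% in 96-well libraries. Every 96-well library was above every ALI library, which was so for 25.6% of promoters. The mean position of the Tcf7 signal was 43.0, 84.1 and 77.7 bp downstream of the TSS in ALI and 88.6, 130.5 and 142.5 bp in 96-well libraries, again with no overlap (16.2% of promoters had ALI lower in this way). The difference was −52.3 bp (exact two-sided permutation test, n = 3 and 3, p = 0.1, the smallest this design can give, adjusted p = 0.3 over the 3 genes), compared with a median of −5.14 bp over all promoters.

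In blocks of 100 bp, the calls at Tcf7 fell on the last 400 bp of the window. On centred values, 4 of its 20 blocks were called, all lower in ALI, against 8.26% of all 4700 blocks called and 4.19% called lower. These 4 blocks are adjacent and neighbouring blocks share reads, so they form a single stretch and are not separate results. The changes were −0.82 at 600 to 700 bp downstream, −1.09 at 700 to 800 bp, −1.02 at 800 to 900 bp and −0.90 at 900 to 1000 bp (limma, adjusted p = 0.00064, 8.5e-06, 0.00026 and 0.0052). Among the 235 promoters these changes ranked 4, 2, 3 and 8 from the lowest at their positions, where the median promoter lay between −0.21 and −0.19. Relative to the promoter's own window, the ranks were 41, 21, 22 and 51, and 0 of the 4 blocks were called (limma, adjusted p from 0.098 to 0.20). On that scale 0 of all 4700 blocks in the table were called. Groups without overlap were more widespread, at 9 of the 20 Tcf7 blocks after centring, all with ALI lower. On that scale, 711 of all 4700 blocks had ALI lower without overlap and 419 had ALI higher.

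The same 4 blocks were apart without any centring, as was the block from 400 to 300 bp upstream. Mean signal from 600 to 1000 bp downstream of Tcf7, an interval chosen after its values were seen, was 4.51, 6.51 and 5.04 in ALI and 8.50, 7.88 and 14.4 in 96-well libraries. The highest ALI library lay below the lowest 96-well library, as for 10.6% of promoters, and the means were 5.35 ± 1.04 and 10.3 ± 3.62 (SD, n = 3 each). These 400 bp gave 62.2% of the whole difference at the window. On deposited values the block changes of −0.92 to −0.65 did not pass the test (limma, adjusted p from 0.26 to 0.64), and 6 of all 4700 blocks did (0.128%), while 10.7% of all blocks had groups without overlap and 5.68% had ALI lower.

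With any single library left out, the centred calls of Tcf7 over the window, downstream and in the 4 blocks were kept, but they rest on how the variance was estimated. On deposited and centred values limma took each variance from the trend shared by promoters of similar signal, and without that trend the centred changes had adjusted p = 0.064 for the window, 0.083 downstream and 0.053 to 0.14 for the 4 blocks. With ALI replicate 2 and 96-well replicate 3 left out together, the centred changes were −0.28 for the window and −0.40 downstream (limma, adjusted p = 0.030 and 0.025, with 11.1% and 8.09% of promoters called lower). In that fit, where 2.26% of blocks were called lower, the blocks from 700 to 900 bp stayed called while the block at 600 bp (−0.62, adjusted p = 0.059) and the block at 900 bp (−0.67, adjusted p = 0.13) did not.

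**Figure D2:**
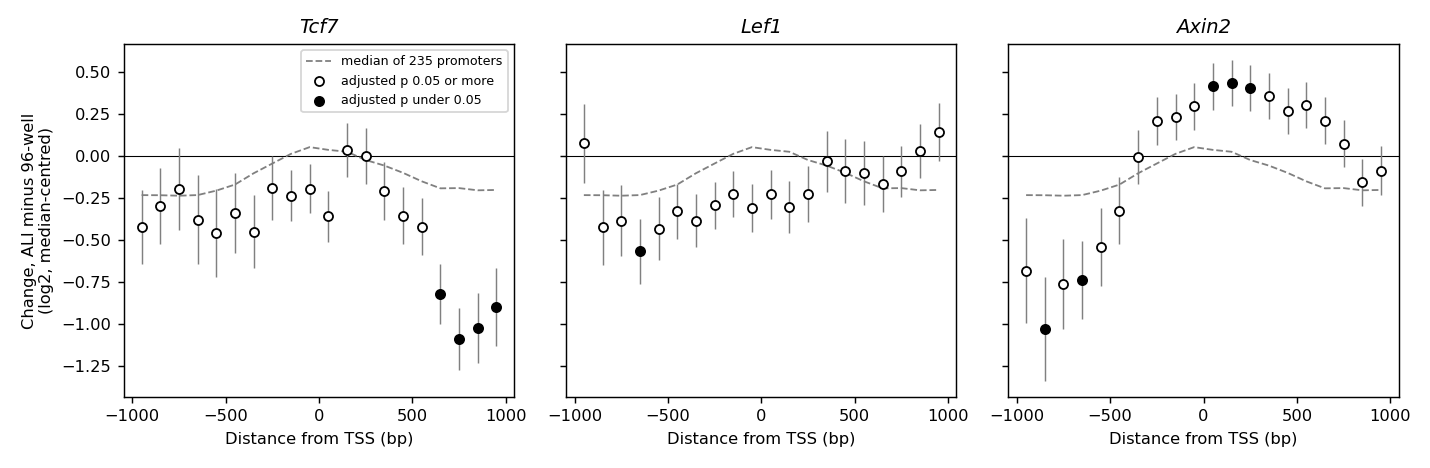
Change, ALI minus 96-well on the median-centred log2 scale (vertical axis), in 20 blocks of 100 bp by distance from the TSS in bp (horizontal axis), with bars for ± 1 SE, filled points for adjusted p under 0.05 and a dashed line for the median of the 235 promoters. Filled points of Tcf7 lie only in the last 400 bp, all below the dashed line, and those of Axin2 lie below 0 far upstream and above 0 at and after the TSS.

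Lef1, the other nuclear effector, showed the smallest whole-window difference of the 3 genes on deposited values. Its signal was 11.2, 17.8 and 12.1 in ALI and 11.9, 12.8 and 17.9 in 96-well libraries. The highest library of each group was nearly equal, and the groups overlapped. The deposited change was −0.06 ± 0.31 (limma, adjusted p = 0.97), with a 95% interval of −0.66 to 0.55. After centring it was −0.22 ± 0.09 with no overlap between the groups, as for 39.1% of promoters. It did not pass the test (limma, adjusted p = 0.061), although it did without ALI replicate 2 (−0.25, adjusted p = 0.028). Under quantile normalization and cyclic loess the window was called lower in ALI, by −0.26 and −0.25 (limma, adjusted p = 0.020 and 0.0033). Those scalings called 19 and 30 of 235 windows lower.

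On centred values with all 6 libraries, the only region of Lef1 called was upstream. From 1000 to 200 bp upstream, signal was 8.36, 14.3 and 8.85 in ALI and 9.78, 11.2 and 14.3 in 96-well libraries, a deposited change of −0.17 ± 0.28 (limma, adjusted p = 0.90) with overlapping groups. After centring the upstream region was lower in ALI by −0.34 ± 0.10 (limma, adjusted p = 0.013) with no overlap, against 7.66% of promoters called lower upstream, 23.4% without overlap and a median upstream change of −0.14. The call was lost without ALI replicate 3 (−0.30, adjusted p = 0.10), without 96-well replicate 2 (−0.31, adjusted p = 0.088) and without the variance trend (adjusted p = 0.17).

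At the centre and downstream of the Lef1 TSS no change passed the test on deposited or centred values. Central signal was 18.5, 32.5 and 22.0 in ALI and 19.7, 23.9 and 34.4 in 96-well libraries, and the centred change was −0.26 ± 0.14 (limma, adjusted p = 0.20). Under quantile normalization and cyclic loess the centre was called lower in ALI, by −0.34 and −0.30 (limma, adjusted p = 0.014 and 0.017). Those scalings called the centre lower at 20 and 24 of 235 promoters. Downstream signal was 10.3, 13.9 and 10.5 in ALI and 10.1, 8.84 and 13.2 in 96-well libraries. The downstream change was 0.10 on deposited and −0.07 on centred values, so its sign turned with the scale (limma, adjusted p = 0.94 and 0.74). A single block of 20 was called after centring, from 700 to 600 bp upstream (−0.57, limma, adjusted p = 0.046), a smaller share than the 8.26% of all blocks, and its groups overlapped on deposited values. It was lost without ALI replicate 1, ALI replicate 3, 96-well replicate 1 or 96-well replicate 2 (−0.58 to −0.46).

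Axin2, the feedback target, had a higher mean in ALI at its TSS, a difference that passed the test after median centring and not on deposited values. In the central 400 bp its signal was 69.8, 119.1 and 76.2 in ALI and 50.7, 52.6 and 80.0 in 96-well libraries. ALI replicate 2 was far above all others, and 96-well replicate 3 lay above the other ALI libraries, so the groups overlapped. The deposited change was 0.52 ± 0.34 (limma, adjusted p = 0.74), with a 95% interval of −0.15 to 1.18. After centring the centre was higher in ALI by 0.35 ± 0.12 (limma, adjusted p = 0.030) with no overlap, against 12.8% of promoters called higher at the centre, 35.3% without overlap and a median central change of 0.04.

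The central Axin2 change depended on the scaling, since it was 0.047 under quantile normalization and 0.060 under cyclic loess (limma, adjusted p = 0.63 and 0.52). The call after centring also depended on single libraries. It was lost without ALI replicate 3 (0.38, adjusted p = 0.10), without 96-well replicate 1 (0.31, adjusted p = 0.24), without 96-well replicate 2 (0.31, adjusted p = 0.22) and without the variance trend (adjusted p = 0.17), with the value on the higher side each time. With ALI replicate 2 and 96-well replicate 3 both left out, the deposited change was 0.49 at the centre (limma, adjusted p = 0.0047, 23.4% of promoters called higher), from the 2 libraries left in each group. Leaving out the highest library of each group narrows the spread by construction.

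Over the whole window Axin2 signal was 33.0, 53.9 and 33.4 in ALI and 25.0, 25.5 and 39.1 in 96-well libraries. The change was 0.40 ± 0.33 on deposited values and 0.24 ± 0.10 after centring, and neither passed the test (limma, adjusted p = 0.81 and 0.095), although the centred change did without ALI replicate 2 (0.17, adjusted p = 0.040) or 96-well replicate 3 (0.31, adjusted p = 0.030). Downstream signal was 39.8, 64.5 and 38.9 against 30.1, 29.9 and 47.7, and the centred change was 0.23 ± 0.12 (limma, adjusted p = 0.20). Of the difference of 10.2 in mean window signal, 53.4% came from the centre, 46.4% from downstream and 0.246% from upstream.

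**Figure D3:**
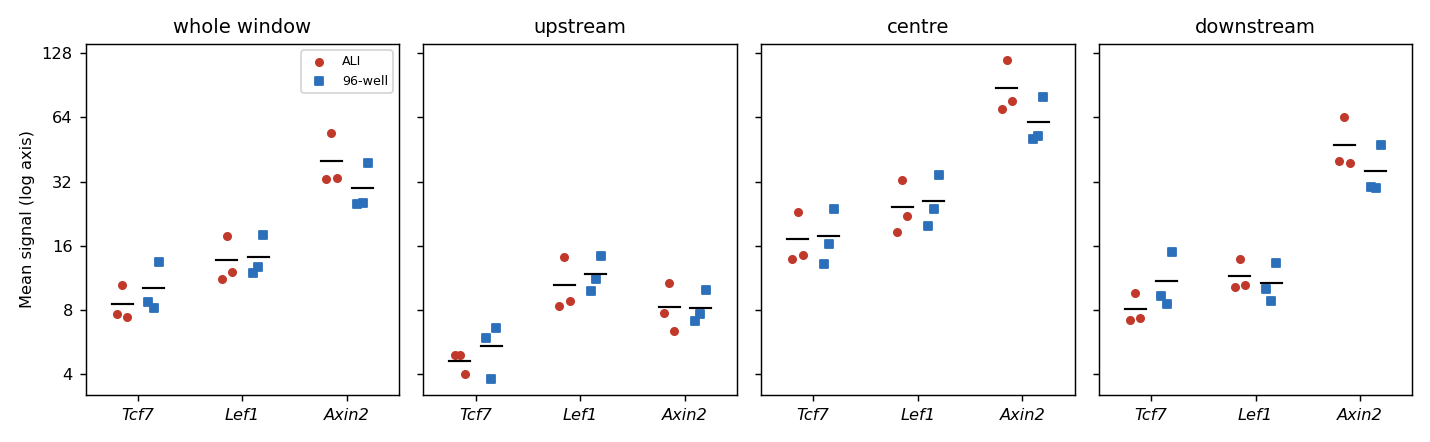
Mean signal of each library (points, log axis) over the whole window, the upstream 800 bp, the central 400 bp and the downstream 800 bp of the 3 promoters, with black lines at the group means of 3 libraries. The ALI mean lies above the 96-well mean for Axin2 at the centre and downstream, and below it for Tcf7 downstream, with overlapping points in every region on this deposited scale.

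The far upstream end of Axin2 went the other way from its centre, but its upstream region as a whole did not pass the test. From 1000 to 200 bp upstream, signal was 7.70, 10.7 and 6.35 in ALI and 7.07, 7.64 and 9.88 in 96-well libraries. The change was −0.0053 ± 0.25 on deposited values, with overlapping groups (limma, adjusted p = 0.998). After centring it was −0.17 ± 0.11 (limma, adjusted p = 0.32) without overlap, as for 23.4% of promoters. Mean signal from 1000 to 600 bp upstream, an interval chosen after its values were seen, was 2.45, 2.22 and 1.77 in ALI and 3.63, 3.95 and 3.99 in 96-well libraries. Every ALI library was lower, as for 11.1% of promoters, although ALI replicate 2 was the highest library at the centre, and the means were 2.15 ± 0.35 and 3.86 ± 0.20 (SD, n = 3 each). All 4 blocks of this interval had groups without overlap on deposited values, against 5.68% of all blocks with ALI lower in this way. These blocks restate the choice of the interval and are no separate result. Signal here was low beside the rest of the Axin2 window.

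After centring, 5 of the 20 Axin2 blocks were called, in both directions, against 8.26% of all blocks called and 4.19% called lower. Adjacent blocks among them share reads and are not separate results. Signal was lower in ALI at 900 to 800 bp upstream (−1.03) and at 700 to 600 bp upstream (−0.74), and higher at 0 to 100 bp (0.41), 100 to 200 bp (0.43) and 200 to 300 bp downstream (0.41; limma, adjusted p = 0.018, 0.028, 0.041, 0.029 and 0.043). Of the 235 promoters, 125 had any called block and 10 had called blocks in both directions, Axin2 among them. Far upstream, the median change over all promoters was about −0.23. With each position centred on its own median, which called 4.7% of blocks, no Axin2 block was called (lowest adjusted p = 0.052), whereas 3 Tcf7 blocks were (−0.62, −0.85 and −0.79 at 600, 700 and 800 bp downstream, adjusted p = 0.046, 0.0050 and 0.018). All 5 Axin2 calls were lost without 96-well replicate 1 and again without 96-well replicate 2. The upstream ones and the block at 200 bp were also lost without ALI replicate 2 or 3, the block at 0 bp without ALI replicate 3, and those at 100 and 200 bp without ALI replicate 1. With 1 library left out, changes ranged from −1.30 to −0.75 and from −0.85 to −0.56 in the upstream blocks and from 0.32 to 0.53 in the blocks after the TSS.

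**Figure D4:**
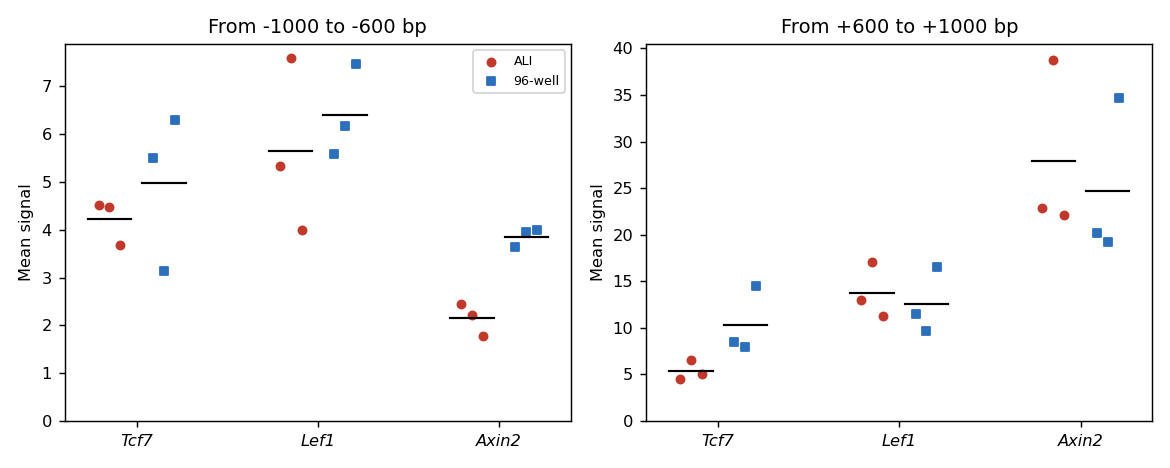
Mean deposited signal of each library (points, linear axis from 0) in the outer 400 bp of the window on the upstream side (left) and the downstream side (right) of the 3 promoters, with black lines at the means of 3 libraries. All 3 ALI points lie below all 3 96-well points for Axin2 upstream and for Tcf7 downstream, and the groups overlap in the other 4 comparisons.

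Ratios taken within each library compare shapes with the library's level removed. Axin2 centre signal was 2.94, 3.17 and 3.37 times that of its flanks in ALI and 2.73, 2.80 and 2.78 times in 96-well libraries. These groups did not overlap, as was the case for 28.9% of promoters, and the log2 change of 0.19 ± 0.09 did not pass the test (limma, adjusted p = 0.25). The median change over all promoters was 0.12 on the same measure, and relative to it Axin2 differed by 0.07 (limma, adjusted p = 0.66), so its sharper centre in ALI was close to that of the whole table. The corresponding changes were 0.26 at Tcf7 and −0.06 at Lef1 (limma, adjusted p = 0.36 and 0.80). Upstream over downstream signal changed by −0.40 at Axin2, −0.27 at Lef1 and 0.20 at Tcf7 (limma, adjusted p = 0.25, 0.28 and 0.50), with no overlap between groups at Axin2 alone of the 3 (27.2% of all promoters).

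The nuclear effectors were then set against the feedback target within each library, which largely cancels a scaling factor common to the library. What varies between libraries with signal level or with position in the window is not cancelled, and its part was not tested. Differences without overlap were common: of the 27495 pairs of promoters in the table, 33.7% had them over the window, 31.9% at the centre and 27.2% downstream. Over the whole window the log2 difference Tcf7 minus Axin2 was −1.97, −2.26 and −2.02 in ALI and −1.42, −1.53 and −1.48 in 96-well libraries. Every ALI library had Tcf7 further below Axin2 than every 96-well library, by −0.61 in the mean. Lef1 minus Axin2 was −1.48, −1.55 and −1.39 in ALI and −1.01, −0.94 and −1.08 in 96-well libraries, a difference of −0.46, also without overlap. Both had p = 0.1 by exact two-sided permutation over the 20 labelled splits of 6 libraries, the smallest p possible, and adjusted p = 0.15 over 3 pairs. Tcf7 minus Lef1 differed by −0.15 with overlapping groups (exact permutation p = 0.2, adjusted p = 0.2). The first pair and the second share Axin2 and are not independent. Under quantile normalization and cyclic loess the differences were −0.33 and −0.29 for Tcf7 minus Axin2 and −0.28 and −0.26 for Lef1 minus Axin2.

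By region, both effectors separated from the target at the centre and downstream on the deposited scale. At the centre the difference was −0.55 for Tcf7 minus Axin2 and −0.61 for Lef1 minus Axin2, both without overlap, and 0.06 with overlap for Tcf7 minus Lef1. Upstream the values were −0.16, −0.17 and 0.00, and the groups of each pair overlapped. Downstream, all 3 pairs separated: Tcf7 minus Axin2 by −0.77, Lef1 minus Axin2 by −0.29 and Tcf7 minus Lef1 by −0.47. Downstream Tcf7 minus Lef1 was −0.46, −0.48 and −0.45 in ALI and −0.10, −0.05 and 0.17 in 96-well libraries, which shows Tcf7 near the level of Lef1 in 96-well and below it in ALI. The downstream value of Lef1 minus Axin2 turned to 0.053 under quantile normalization and 0.11 under cyclic loess, and at the centre those scalings gave −0.20 and −0.20 for Tcf7 minus Axin2 and −0.39 and −0.36 for Lef1 minus Axin2. No regional pair could fall below the exact permutation p of 0.1.

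Promoters most like each gene were found by shape and by pattern over libraries. By shape, measured as the shared part of the 2 profiles over 100 bins averaged over 6 libraries, Tcf7 was nearest to Gm48084 (89.4%), Trp63 (88.7%) and Ager (88.7%). Lef1 was nearest to Wnt5a (87.6%), Neo1 (86.1%) and Jag2 (85.8%), and Axin2 to Rspo2 (91.6%), Zranb2 (90.3%) and Bmp4 (88.9%), with medians over all promoters of 74.0%, 71.2% and 70.0%. Tcf7 and Axin2 shared 83.5%, Tcf7 and Lef1 79.9%, and Lef1 and Axin2 69.1%, so the feedback target resembled Tcf7 more than Lef1. By centred level over the 6 libraries, the nearest promoters were Dlx2, Cd55 and Mxi1 for Tcf7 (root mean square log2 difference 0.046, 0.060 and 0.064), Glt28d2, Wnt5a and Jag2 for Lef1 (0.041, 0.044 and 0.049) and Rock1, Fn1 and Pknox1 for Axin2 (0.031, 0.034 and 0.039). Wnt5a and Jag2 were near Lef1 by both measures.

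Of 90 Wnt pathway genes listed, 10 were in the table, the 3 above and 7 others. On deposited values 0 of the 10 were called in any region (limma), and the highest background of calls was 0.426%, in the upstream region. After centring, 3 of the 10 were called lower over the window (Tcf7, Rspo2 and Dkk1) and 0 higher, against 10.2% of all promoters called lower and 21.7% called in either direction. The median change of the 10 was −0.16 against −0.03 for all promoters. Rspo2 encodes a secreted enhancer of Wnt signalling that is needed to maintain the limb ridge, and it changed by −0.36 (limma, adjusted p = 0.0023). Dkk1 encodes a secreted inhibitor of Wnt co-receptors, and it changed by −0.33 (limma, adjusted p = 0.0095).

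These promoters were called in different regions. Rspo2, like Tcf7, was lower in ALI downstream (−0.45, limma, adjusted p = 0.0012), where 14% of all promoters were called lower. Wnt5a, a ligand of non-canonical signalling, was lower upstream (−0.49, limma, adjusted p = 0.00047), as Lef1 was, against 7.66% of promoters called lower there. At the centre Dkk1 was lower (−0.51, limma, adjusted p = 0.0057, against 5.11% of promoters called lower there). Axin2 was the single Wnt promoter called higher in any region, which is 1 of the 10 at the centre against 12.8% of all promoters. The other listed genes were the ligands Wnt3 and Wnt3a, the receptor Fzd8 and the R-spondin receptor Lgr5. Their whole-window changes after centring were −0.09, −0.01, 0.06 and −0.14, and none passed the test in any region (limma). In blocks, Wnt5a had 6 called lower, Rspo2 5 and Dkk1 4, with none called higher, against 4.19% of all blocks called lower.

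**Figure D5:**
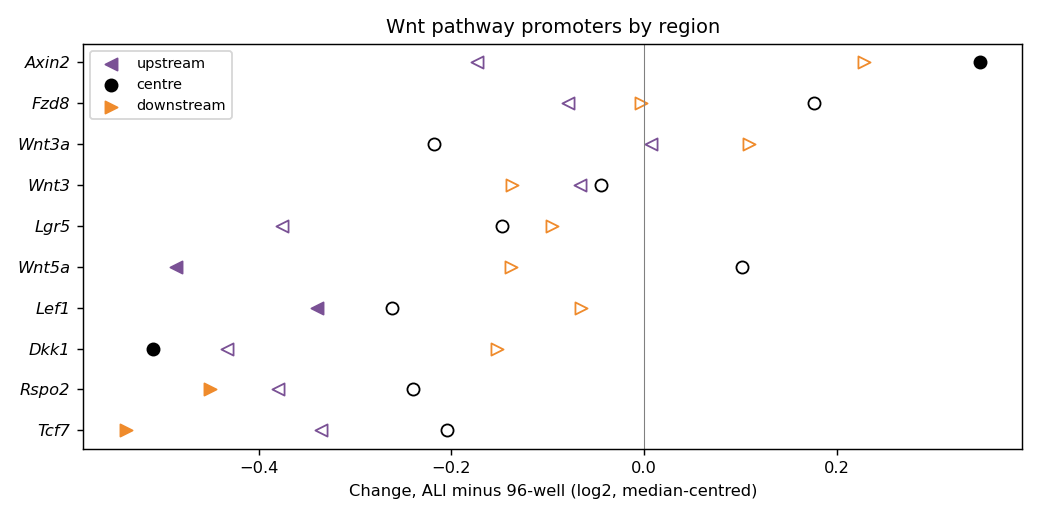
Change, ALI minus 96-well on the median-centred log2 scale (horizontal axis), in the upstream 800 bp, central 400 bp and downstream 800 bp of the 10 Wnt pathway promoters in the table (vertical axis), with filled symbols for adjusted p under 0.05. The central point of Axin2 is the only filled symbol to the right of 0, and 5 filled symbols lie to the left.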

How the data were processed

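The deposited table holds signal, depth-normalized coverage computed by the authors with deepTools in 20 bp bins, per the file headers. The build was GRCm39 and the tools included deepTools 3.5.1, Bowtie2 2.5.1 and Trim Galore 0.6.10, as well as SAMtools 1.16.1 and Picard, per the submitters' processing notes. The formula of the normalization, any shift of reads for Tn5, the removal of duplicates and the choice of the 235 promoters were not given in the sources used here, so shares of calls describe this table. Total depth is unknown, though low values were whole multiples of 1 step (100% of those examined, to within 0.1 of a step). Under that step, mean coverage was 72.5 to 213.7 reads per base. No count test was run.

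Mean signal was taken over the window, its 3 regions and its 20 blocks as log2(signal + 1.04), the pseudocount being 0.1 of the median promoter value. limma 3.58.1 in R 4.3.3, with a mean-variance trend, was fitted on all promoters and all 6 libraries, with Benjamini-Hochberg adjustment over 235 windows, 705 regions, 470 ratios or 4700 blocks and a threshold of 0.05. The code was tested on simulated data. Other scalings, pseudocounts, filters, region widths, a replicate block and leaving out each library were tried. The rule for named genes took the 3 genes, every listed Wnt gene in the table, and for each of the 3 the 3 promoters most alike by shape and by level. The members and lists were chosen with earlier results of these data known. Position-wise centring, blocks relative to their own window, fits after centring without the trend, leaving out both high libraries together, and pair differences under other scalings were added after seeing the data.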

Additional observations from a re-analysis of the deposited data

How the results depend on the processing

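On deposited values no whole window was called in any fit that left out 1 library (0 to 0 of 235), and the direction at Lef1 and at regions of small change was not fixed. Leaving out 1 library moved the deposited change from −0.26 to 0.18 at the centre of Tcf7, from −0.25 to 0.11 over the window of Lef1, from −0.31 to 0.12 at its centre, from −0.027 to 0.25 downstream of it, from −0.16 to 0.012 for its centre over flanks, and from −0.19 to 0.15 upstream of Axin2. After median centring the ranges were −0.48 to −0.20 upstream of Tcf7, −0.26 to −0.18 over the window of Lef1, −0.40 to −0.30 upstream of it, 0.17 to 0.31 over the window of Axin2 and 0.28 to 0.43 at its centre. The number of blocks called was 1 to 11 on deposited values and 122 to 366 after centring, and of windows 22 to 58 after centring.

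The scaling set the calls. Median centring, quantile normalization, equal flanks and cyclic loess called 51, 38, 73 and 61 windows. In that order Tcf7 had −0.37, −0.31, −0.30 and −0.27 over the window and −0.54, −0.38, −0.47 and −0.37 downstream, all called. Lef1 was called over the window under quantile normalization (−0.26) and cyclic loess (−0.25), at the centre under both (−0.34 and −0.30) and upstream under centring, quantile normalization and cyclic loess (−0.34, −0.36 and −0.34). Its downstream change turned to −0.066 under centring. Axin2 was called at the centre under centring (0.35) and equal flanks (0.41) and over the window under equal flanks (0.30), and not under quantile normalization or cyclic loess, where it was 0.047 and 0.060 at the centre and 0.019 and 0.013 over the window. Its downstream change turned to −0.043 under cyclic loess, and its upstream change to 0.17 when the centre was cut to 200 bp. Tcf7 minus Lef1 turned to 0.057 at the centre and 0.0037 upstream. Blocks called numbered 388 after centring, 221 with position-wise centring and 0 relative to their own window. The cause was not tested.

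After centring, eBayes without the trend called 0 windows and 6 blocks. The values were then −0.37 and −0.54 for Tcf7 over the window and downstream, −0.34 upstream of Lef1 and 0.35 at the centre of Axin2, none called. With ALI replicate 2 and 96-well replicate 3 left out together, 79 windows and 442 blocks were called on deposited values and 78 windows after centring. Axin2 was then called over the window (0.38 deposited, 0.24 centred), at the centre (0.49 deposited) and downstream (0.38 deposited, 0.24 centred), and Lef1 over the window (−0.22 centred). Only 2 libraries per group remained in these fits.

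Same-numbered libraries had correlations of deviations of 0.67, −0.61 and −0.60, and ALI replicate 2 correlated best with 96-well replicate 3 (0.81). Deviations from a group's mean cancel over its 3 libraries, so these correlations are tied together. They cannot decide whether replicate numbers pair the samples. With the replicate block, the centre of Axin2 was 0.35 and not called (limma, adjusted p = 0.084), 241 blocks were called after centring, and Tcf7 and Lef1 kept their calls over the regions. The exact sign-flip permutation test of the pairs within the replicate block could not fall below p = 0.25. Total depth is unknown, so what it limits could not be given.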
